A study of Mus musculus with 26 samples.

Results

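The proteasome genes were taken as the protein-coding genes whose symbol starts with Psma, Psmb, Psmc or Psmd followed by a number. This gave 40 of the 45318 genes in the RNA-seq count files. They comprised 8 alpha subunits, 7 constitutive beta subunits, the 3 immunoproteasome beta subunits (Psmb8, Psmb9 and Psmb10), the thymoproteasome subunit Psmb11, 6 ATPases, 3 other subunits of the regulatory base, 8 subunits of the lid and 3 assembly factors that carry a Psmd name. The last match, Psmc3ip, encodes a recombination protein and is no proteasome subunit. 4 further symbol matches were pseudogenes and were left out.

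The proteasome degrades proteins that carry ubiquitin chains. Its barrel, the 20S core, is built of alpha rings that gate the entrance and beta rings that hold the protease sites, and the 19S regulatory particle on its ends binds ubiquitin chains, removes them (lid) and unfolds the substrate with a ring of ATPases. Psmb5, Psmb6 and Psmb7 carry the constitutive protease sites. In immune cells, and in other cells after interferon, Psmb8, Psmb9 and Psmb10 take their places and favour peptides that fit MHC class I molecules, and tumor cells vary in how much of this form they make.

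The RNA came from 4T1 cells, an aggressive triple-negative mammary carcinoma line from a BALB/c mouse, as 2 control libraries, 3 of MaTAR25 KO1 and 4 of MaTAR25 KO2. The genotype of the control is given as wild type, and by the study's methods control clones received a guide RNA against Renilla luciferase. KO1 and KO2 carry the genotype MaTAR25-/-, a deletion made with Cas9 and a pair of guide RNAs around the transcription start site of the lncRNA gene MaTAR25. KO1 and KO2 are each 1 clone grown from a single cell, so a difference between them is a difference between these clones. The labels name no treatment. The sources do not say whether libraries of a group came from separate cultures, so p-values measure the spread between these libraries, which may be technical. Both clones are set against the same 2 control libraries.

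The libraries held 25367211 to 61110585 counts on genes, and 33.9 to 37.0% of all entries were given to no gene, mostly reads that did not map uniquely (24.1 to 27.5%). Both shares were higher in the KO2 libraries than in the others. Counts of the deleted gene (1200007C13Rik, the symbol of MaTAR25) were 30 and 35 in control cells, 0 to 7 in KO1 and 1 to 11 in KO2. Epithelial markers, with Epcam, Cdh1, Krt7, Krt8 and Krt18 present throughout and the basal keratin Krt5 at 0 counts, summed to 3725 to 3911 CPM (counts scaled to an equal library total) in control cells, 5063 to 7337 in KO1 and 2197 to 4541 in KO2. They did not move together against control: in KO1, 4 of the 7 tested were above control and 3 below, and in KO2, 2 were above and 5 below. Between the clones all 7 were lower in KO2 than in KO1. Krt7 and Krt8 were called higher in KO1 and Cdh1 lower in KO2, each against control. Krt7, Krt8 and Krt14 were called lower in KO2 than in KO1. Of 10 immune markers, Adgre1 and Laptm5 had no count in any library, Ptprc (CD45) was at most 0.90 CPM and their summed level, mostly Csf1r, was 5.22 to 5.60 CPM in control cells, 1.26 to 3.22 in KO1 and 2.18 to 10.2 in KO2. Of 6 fibroblast markers, Dcn, Lum and Col3a1 had no count and Pdgfra was at 11.7 to 46.9 CPM, and their sum was 17.7 to 21.8 CPM in control cells, 21.0 to 39.8 in KO1 and 11.7 to 46.9 in KO2. The endothelial markers, mostly Egfl7, summed to 6.98 to 8.05, 8.71 to 10.7 and 5.14 to 11.6 CPM. At low levels, Cdh5 (at most 1.39 CPM) was called higher in KO2 than in control cells and KO1 (adjusted p = 0.0317 and 0.0208), Coro1a (at most 0.572 CPM) higher in KO2 than in control cells (0.0474), and Ptprc higher in KO2 than in KO1 (0.0972). Their part in the results below was not tested. In bulk RNA, fewer cells of a type and less RNA per cell cannot be told apart.

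Of the 40 genes, 38 passed the filter on low counts and were tested with edgeR's quasi-likelihood test, among 15023 genes in all. Psma8, the alpha subunit of the testis form, had 0 counts in every library, which allows up to 0.0491 CPM in the deepest one (a floor of 3 counts). Psmb11, which belongs to the thymus, had 0 to 4 counts. A gene was called at a Benjamini-Hochberg adjusted p of at most 0.1 over all genes tested. All fold changes below are log2 values ± SE from that fit, and CPM values were scaled by TMM.

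Where proteasome genes changed they mostly rose. In KO1, 20 of the 38 were called higher and 0 lower, beside 31.6% of all genes called and 15.9% called higher. In KO2, 21 were called higher and 2 lower, beside 31.4% called and 16.5% called higher. 16 of the 38 (42.1%) were called higher in both clones, against 9.91% of all genes tested. The median log2 fold change of the 38 was 0.54 in KO1 and 0.53 in KO2, while the median over all genes was 0.02 and 0.03. The 2 members that fell in KO2 were Psmb8 and Psmb9. With either control library left out, fewer members were called in both clones, and fewer of all genes were called as well. Psma1, Psma2, Psmc4, Psmd1, Psmd2, Psmd3 and Psmd13 were called higher in both clones whichever single library was left out.

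**Figure D1:**
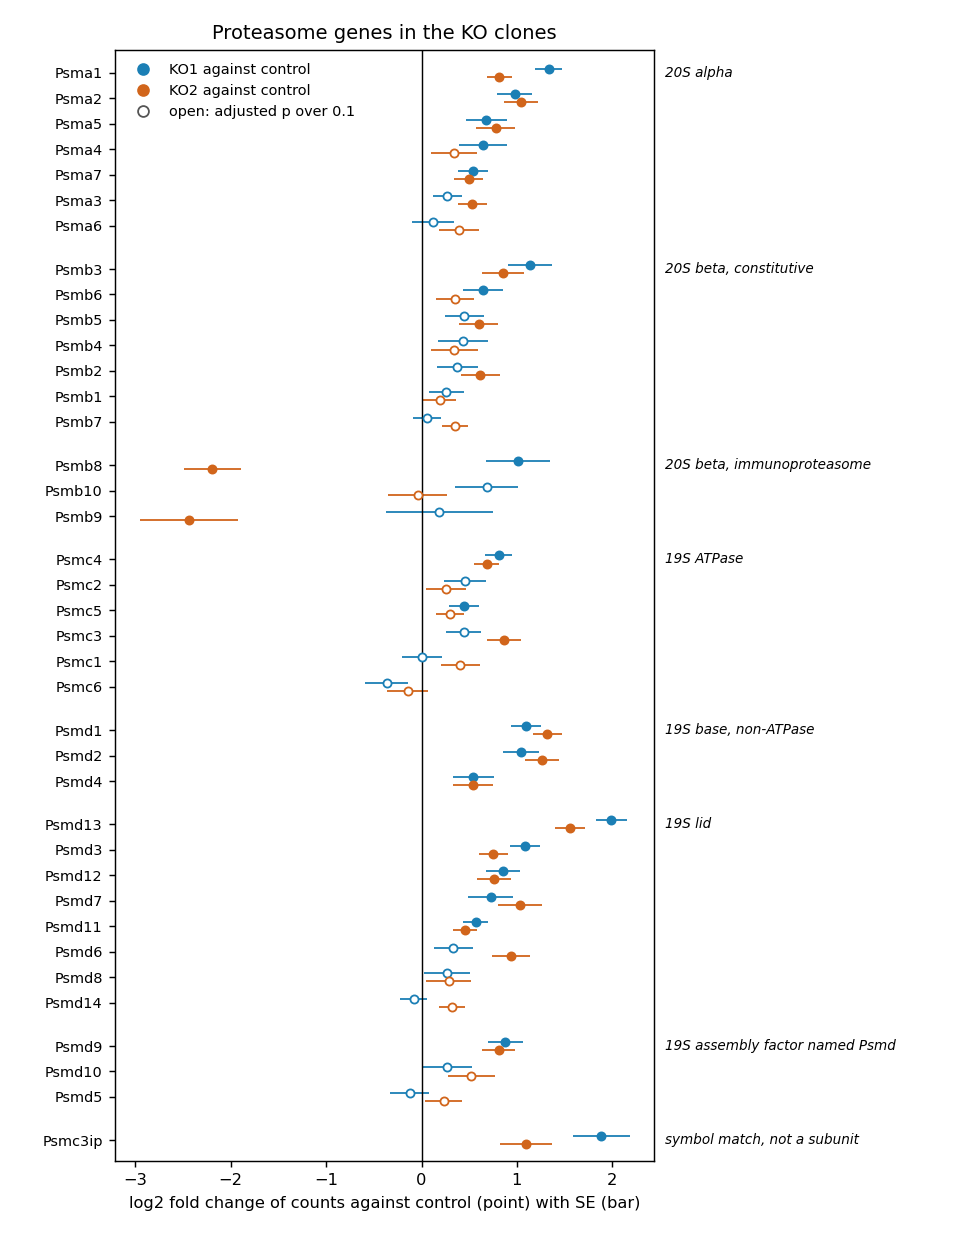
Log2 fold change against control of the 38 tested proteasome genes, by class, in KO1 (blue) and KO2 (orange). Points are the fitted values, bars the SE, and filled points passed an adjusted p of 0.1. Nearly all points lie right of 0, up to 1.99 for Psmd13 in KO1, while Psmb8 and Psmb9 in KO2 lie at -2.19 and -2.44.

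The 7 tested alpha subunits, which form the outer rings and the gate of the core, were above 0 in both clones. 5 were called higher in KO1 and 5 in KO2, with medians of 0.64 and 0.53. Psma1 was at 109 and 119 CPM in control cells, at 278, 281 and 302 in KO1, and at 186, 222, 199 and 194 in KO2. The 3 groups did not overlap, with KO1 on top and KO2 between. It rose by 1.33 ± 0.14 against control in KO1 (adjusted p = 0.000881), and by 0.82 ± 0.13 in KO2 (0.00398).

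Psma2 was at 72.5 and 75.5 CPM in control cells, at 138, 138 and 160 in KO1, and at 125, 177, 136 and 171 in KO2. Every KO library lay above both controls, and the clones overlapped. Its rise was 0.98 ± 0.19 in KO1 and 1.04 ± 0.18 in KO2 (adjusted p = 0.00708 and 0.00483), the highest of the class in KO2. Psma5 and Psma7 were also called in both clones. Psma4 was called in KO1 (adjusted p = 0.0966) and had the lowest fold change of the class in KO2, 0.34 ± 0.24 (0.330), while Psma3 was called in KO2 (0.0328). Neither passed the test between the clones (adjusted p = 0.365 and 0.218). Psma6 had the lowest fold change in KO1, 0.12 ± 0.22 (adjusted p = 0.726), although it had the highest control level of any proteasome gene per length, 142 CPM per kb of exon. The lowest level per length of a tested alpha subunit in control cells was that of Psma2, 20.2 CPM per kb.

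Among the 7 constitutive beta subunits, 2 were called higher in KO1 and 3 in KO2. Psmb3, a structural subunit without a protease site, was called in both. It was at 57.7 and 64.6 CPM in control cells, at 133, 121 and 150 in KO1, and at 97.9, 118, 144 and 83.5 in KO2. No KO library reached down to the controls, and it rose by 1.14 ± 0.23 against control in KO1 (adjusted p = 0.00897), and by 0.86 ± 0.22 in KO2 (0.0226). At the other end, Psmb1 was at 0.26 ± 0.18 and 0.19 ± 0.17, and its KO2 libraries overlapped the controls. Psmb4 had the highest control level per length of the class, 103 CPM per kb, and Psmb3 the lowest, 26.6.

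Each of the constitutive protease subunits passed the test in at most 1 clone. Psmb5, which cleaves after hydrophobic residues, was at 26.5 and 31.1 CPM in control cells, at 39.6, 38.5 and 39.8 in KO1, and at 36.2, 54.8, 37.1 and 46.2 in KO2. The control libraries were the lowest in both comparisons. Its rise passed the test in KO2 (0.60 ± 0.20, adjusted p = 0.0593) and not in KO1 (0.45 ± 0.21, 0.150). Psmb6, which cleaves after acidic residues, was at 95.2 and 107 CPM in control cells, at 166, 142 and 167 in KO1, and at 117, 108, 172 and 120 in KO2. It was called in KO1 (0.65 ± 0.21, adjusted p = 0.0519) and not in KO2 (0.35 ± 0.20, 0.224), where the lowest library was barely above the controls. Psmb7, which cleaves after basic residues, was at 166 and 169 CPM in control cells, at 181, 156 and 184 in KO1, and at 224, 231, 211 and 188 in KO2. It was called in neither clone, with 0.05 ± 0.15 in KO1 and 0.35 ± 0.14 in KO2 (adjusted p = 0.823 and 0.102).

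Of the 3 immunoproteasome subunits, Psmb8 and Psmb9 were called between the clones and Psmb10 was not. Psmb8, the counterpart of Psmb5, was at 21.4 and 25.96 CPM in control cells, at 57.3, 34.4 and 51.2 in KO1, and at 3.12, 5.10, 6.60 and 5.83 in KO2. The 3 groups did not overlap: KO1 was the highest and every KO2 library was far below both controls. Mean levels were 23.7 ± 3.24 CPM (SD, n = 2) in control cells, 47.6 ± 11.8 (n = 3) in KO1 and 5.16 ± 1.49 (n = 4) in KO2, 4.59-fold below control and 9.23-fold below KO1. Set against control, it was 1.01 ± 0.33 in KO1 (adjusted p = 0.0548), -2.19 ± 0.30 in KO2 (0.00185) and -3.20 ± 0.28 between the clones (0.000785). The rise in KO1 was lost when either control library, KO1 replicate 1 or KO1 replicate 3 was left out (adjusted p = 0.132 to 0.287). The fall in KO2 was called in all 9 of those fits.

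Psmb9, the counterpart of Psmb6, was at 6.30 and 12.7 CPM in control cells, at 14.9, 8.62 and 8.82 in KO1, and at 0.837, 0.969, 2.74 and 2.37 in KO2. KO1 overlapped the controls, and all of KO2 lay below both groups. Set against control, it was 0.19 ± 0.56 in KO1 (adjusted p = 0.835), -2.44 ± 0.51 in KO2 (0.0102) and -2.63 ± 0.48 between the clones (0.0128). Without control replicate 2 the fall in KO2 was not called (adjusted p = 0.127). The 23 counts of 1 library were the fewest of any tested proteasome gene, and other than Psmb8 and Psmb9 none had under 287.

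Psmb10, the counterpart of Psmb7, was at 34.7 and 40.6 CPM in control cells, at 65.7, 53.5 and 62.1 in KO1, and at 29.5, 23.3, 35.9 and 57.4 in KO2. The KO1 libraries were above both controls, while those of KO2 spread on either side of them. No contrast passed the test, with 0.68 ± 0.33 in KO1 (adjusted p = 0.165), -0.04 ± 0.31 in KO2 (0.939) and -0.73 ± 0.27 between the clones (0.111). Without KO2 replicate 4, the highest of that clone, the difference between the clones was called (adjusted p = 0.0205), as was the one between KO1 and control (0.0480). The latter was also called without KO2 replicate 2 (0.0962) and in a fit of those groups alone (0.00807), and the former with DESeq2 (0.0642), with no filter (0.0904) and with the replicate block (0.0396).

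**Figure D2:**
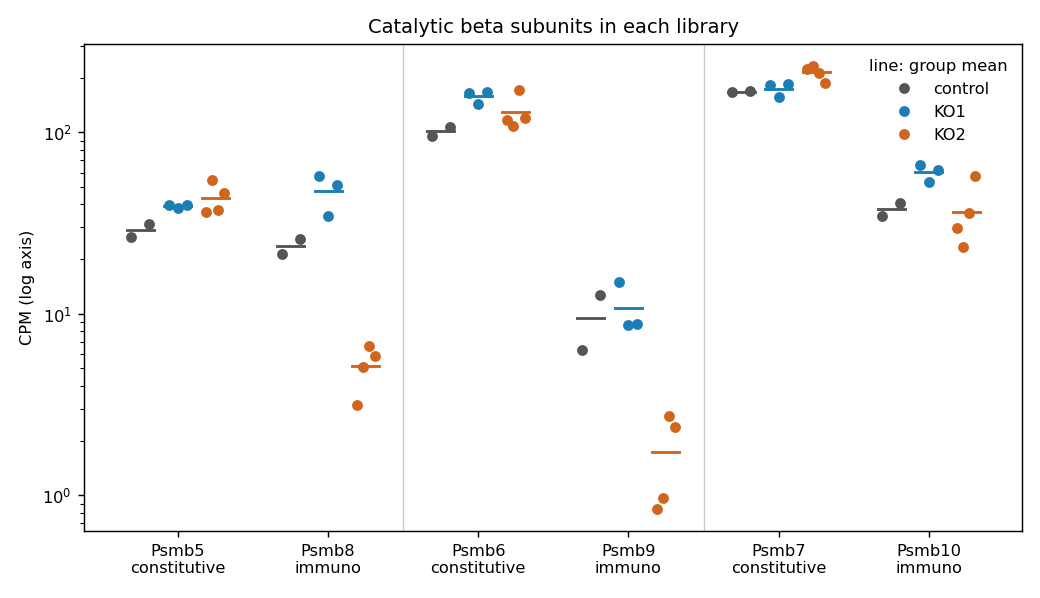
CPM (log axis) of the catalytic beta subunits in each library, each constitutive subunit beside its immunoproteasome counterpart. Points are libraries and lines group means. Psmb8 and Psmb9 in KO2 lie below every other library, at 3.12 to 6.60 and 0.837 to 2.74 CPM, and Psmb10 in KO2 spans 23.3 to 57.4.

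The share that an immunoproteasome subunit took in the sum of itself and its constitutive partner was computed from CPM per kb of exon, since levels of 2 genes can be compared only per length. For Psmb8 it was 17.7 and 18.2% in control cells, 27.8, 19.2 and 25.5% in KO1, and 2.24, 2.41, 4.52 and 3.24% in KO2. No library of 1 group fell in the range of another. For Psmb9 it was 3.27 and 5.71% in control cells, 4.40, 3.01 and 2.63% in KO1, and 0.365, 0.456, 0.809 and 1.00% in KO2, and KO2 was again the lowest throughout. For Psmb10 it was 29.5 and 32.5% in control cells, 42.1, 40.8 and 40.4% in KO1, and 20.9, 16.8, 25.4 and 38.0% in KO2, where 1 library was above the controls and the others were below.

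Exact permutation tests over libraries (two-sided) gave p = 0.0286 for Psmb8 and for Psmb9 between the clones, a difference of -21.0 and -2.69 percentage points, the smallest p that 3 against 4 libraries allow. Against control, the KO2 difference was -14.8 points for Psmb8 and -3.84 points for Psmb9 (exact p = 0.0667 each, the smallest that 2 against 4 allow), and the KO1 comparison cannot go below 0.1. After Benjamini-Hochberg adjustment over the 9 comparisons none passed 0.1, the lowest being 0.120 in an exact permutation test.

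**Figure D3:**
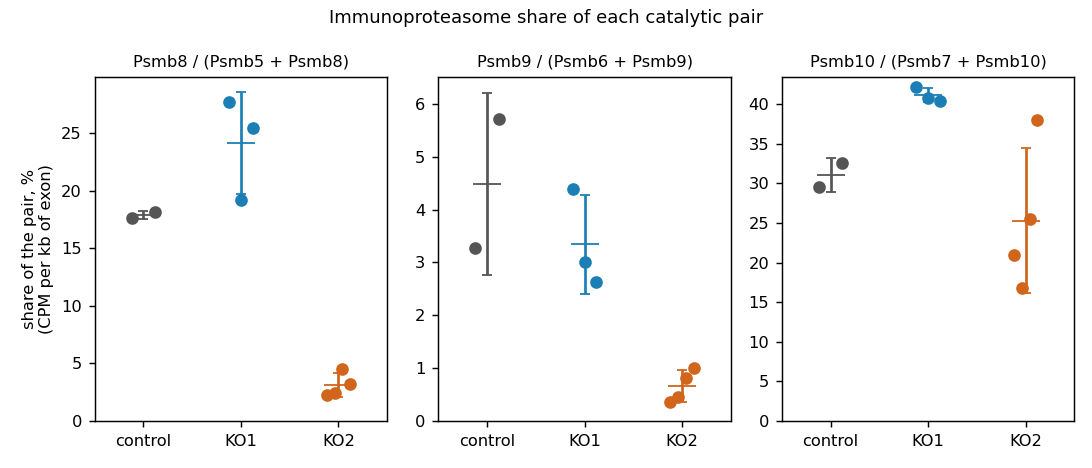
Share of each immunoproteasome subunit in the sum with its constitutive partner, from CPM per kb of exon, by library (points) with group mean and SD (bars). The axes of the 3 panels differ. Means fell from 17.9% in control cells to 3.10% in KO2 for Psmb8 and from 4.49% to 0.657% for Psmb9, and KO1 was above control for Psmb8 (24.1%) and Psmb10 (41.1%).

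Psmb8 and Psmb9 lie beside each other in the MHC region of chromosome 17 (GRCm38), Psmb9 on the minus strand from 34181987 to 34187764 and Psmb8 on the plus strand from 34197721 to 34201454. Tap1 lies between them and Tap2 beyond Psmb8, and the 4 genes span 34.3 kb. Psmb10 lies on chromosome 8 (105935735 to 105938444, minus strand). The library kit does not mark strand, so reads where 2 genes share exon bases cannot be told apart, and entries for ambiguous reads were left out. In GENCODE vM21, 212 bases of Psmb9 exon overlap Tap1 on the other strand, 498 of Psmb8 overlap Gm20496 and 405 of Psmb7 overlap Nek6. Of all members, 12 share exon bases with another gene.

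Promoters of the immunoproteasome genes are shown so that Psmb8 and Psmb9, called between the clones, can be read beside Psmb10, which was not. The sequences are those of RefSeq on GRCm38.p6, from 250 bases before to 50 after a transcription start, and capitals mark matches to the gamma-activated site (TTCNNNGAA) or the interferon-stimulated response element (GAAA, any 2 bases, GAAA), searched on both strands, the letters bound by STAT and IRF factors. Psmb8 (chr17:34197945-34198244, plus strand) had 1 gamma-activated site, which begins 97 bases before the start, while the windows of Psmb9 (chr17:34187281-34187580, minus strand) and Psmb10 (chr8:105938343-105938642, minus strand) held neither motif. The annotated genes begin outside these windows for Psmb9 (34187764) and Psmb8 (34197721). Bases around those outer starts were not searched, so a motif there would be missed.
Psmb8: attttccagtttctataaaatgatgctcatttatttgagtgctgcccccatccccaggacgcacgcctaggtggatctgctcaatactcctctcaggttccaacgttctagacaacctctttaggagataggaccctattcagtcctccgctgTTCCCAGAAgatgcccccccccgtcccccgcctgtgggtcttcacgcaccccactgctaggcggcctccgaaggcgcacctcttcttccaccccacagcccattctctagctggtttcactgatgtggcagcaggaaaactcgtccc
Psmb9: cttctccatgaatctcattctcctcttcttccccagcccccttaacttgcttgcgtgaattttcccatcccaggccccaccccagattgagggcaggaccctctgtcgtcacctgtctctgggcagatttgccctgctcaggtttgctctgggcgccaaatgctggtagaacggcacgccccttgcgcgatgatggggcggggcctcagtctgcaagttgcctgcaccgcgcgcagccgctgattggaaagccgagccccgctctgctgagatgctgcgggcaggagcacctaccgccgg
Psmb10: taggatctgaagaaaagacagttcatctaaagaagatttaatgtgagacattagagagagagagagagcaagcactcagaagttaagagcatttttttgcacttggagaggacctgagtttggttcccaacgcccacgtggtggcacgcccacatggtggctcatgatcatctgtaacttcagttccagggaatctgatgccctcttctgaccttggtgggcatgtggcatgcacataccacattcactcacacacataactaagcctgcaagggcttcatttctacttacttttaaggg

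In the 19S base, the ATPases form the ring that unfolds substrates. 2 of the 6 were called higher in each clone, with medians of 0.45 in KO1 and 0.35 in KO2. Psmc4 was at 75.8 and 74.4 CPM in control cells, at 132, 129.5 and 133 in KO1, and at 128, 129, 115 and 110.1 in KO2. Both clones were clear of the controls and their own libraries lay close together. It rose by 0.81 ± 0.14 in KO1 (adjusted p = 0.00442) and 0.68 ± 0.13 in KO2 (0.00734). Psmc3 had the highest fold change of the class in KO2, 0.86 ± 0.18 (adjusted p = 0.00946), against 0.44 ± 0.18 in KO1 (0.108). Psmc5 was called in KO1 only (0.45 ± 0.15, adjusted p = 0.0644).

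Psmc6 was the only tested subunit of the standard 26S proteasome with a fold change below 0 in both clones, -0.36 ± 0.23 and -0.14 ± 0.21, and neither passed the test (adjusted p = 0.271 and 0.659). It was at 199 and 201 CPM in control cells, at 143, 172 and 152 in KO1, and at 140, 240, 148 and 197 in KO2. The KO1 libraries were below both controls, and those of KO2 overlapped them. Psmc1 had the highest control level per length of the ATPases, 112 CPM per kb, and a fold change of 0.01 ± 0.21 in KO1. Psmc4 had the lowest, 34.7 CPM per kb.

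The other base subunits were called higher in both clones, 3 of 3. Psmd1 was at 152 and 164 CPM in control cells, at 308, 322 and 380 in KO1, and at 431, 416, 359 and 371 in KO2. All 7 KO libraries were well above the controls, and the clones overlapped. It rose by 1.09 ± 0.16 against control in KO1 (adjusted p = 0.00210), and by 1.32 ± 0.15 in KO2 (0.00103). Psmd2, the most abundant of the class per length at 74.6 CPM per kb in control cells, was at 289 and 314 CPM there, at 570, 564 and 730 in KO1, and at 604, 806, 798 and 682 in KO2. The same separation was seen, with 1.04 ± 0.19 and 1.26 ± 0.18 (adjusted p = 0.00510 and 0.00232). The ubiquitin receptor Psmd4 was close to the threshold, with 0.54 ± 0.22 and 0.54 ± 0.21 (adjusted p = 0.0995 and 0.0893), and 1 KO2 library lay within the range of the controls.

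Of the 8 lid subunits, 5 were called higher in KO1 and 6 in KO2, with medians of 0.65 and 0.76. Psmd13 had the highest fold change of all proteasome genes in both clones. It was at 48.7 and 45.8 CPM in control cells, at 198, 173 and 192 in KO1, and at 124, 155, 150 and 127 in KO2. The groups did not overlap, with KO1 the highest. Mean levels were 47.2 ± 2.05 CPM (SD, n = 2), 188 ± 13.3 (n = 3) and 139 ± 15.8 (n = 4), 3.97-fold and 2.94-fold over control. On the log2 scale it rose by 1.99 ± 0.17 in KO1 (adjusted p = 0.000577), and by 1.56 ± 0.16 in KO2 (0.000621). Psmd13 also had the lowest control level per length among the lid subunits, 14.0 CPM per kb, against 66.8 for Psmd7, the highest. Of its exon bases, 342 overlap Sirt3 on the other strand.

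Psmd3 rose by 1.09 ± 0.16 in KO1 and 0.75 ± 0.15 in KO2 (adjusted p = 0.00243 and 0.00889), from 188 and 191 CPM in control cells to between 381 and 419 in KO1 and between 275 and 363 in KO2, with no overlap of any pair of groups. Psmd7, Psmd11 and Psmd12 were called in both clones too. Psmd14 encodes the protease that cuts the ubiquitin chain off the substrate. It was at 139 and 135 CPM in control cells, at 137, 118 and 133 in KO1, and at 190, 168, 174 and 153 in KO2. KO1 overlapped the controls while KO2 was above both, and neither contrast passed the test (-0.08 ± 0.14 and 0.32 ± 0.14, adjusted p = 0.714 and 0.121). Psmd8 had the lowest fold change in KO2, 0.28 ± 0.23 (adjusted p = 0.405).

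Among the 3 assembly factors that hold parts of the base before they join, Psmd9 was called higher in both clones (0.88 ± 0.18 and 0.81 ± 0.17, adjusted p = 0.00920 and 0.0109), while Psmd5 (-0.13 ± 0.20 and 0.23 ± 0.20) and Psmd10 were called in neither. Control levels per length ran from 4.66 CPM per kb for Psmd9 to 18.1 for Psmd10, and 1849 exon bases of Psmd9 overlap Gm26745 on the other strand. Psmc3ip was at 6.32 and 9.85 CPM in control cells, at 31.3, 27.4 and 30.8 in KO1, and at 18.7, 12.1, 20.7 and 17.5 in KO2. The groups did not overlap and KO2 lay in the middle, with 1.88 ± 0.30 (adjusted p = 0.00320) and 1.10 ± 0.28 (0.0211).

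**Figure D4:**
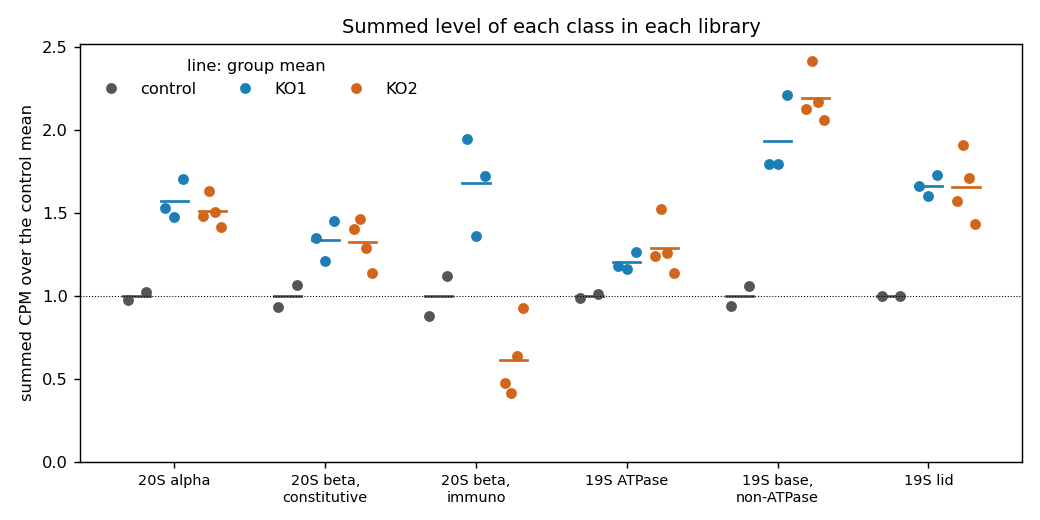
Summed CPM of each class in each library, divided by the mean of the 2 control libraries (dotted line at 1). Points are libraries and lines group means. The mean of the 19S base subunits that are not ATPases was 1.93 in KO1 and 2.20 in KO2, that of the ATPases 1.20 and 1.29, and that of the immunoproteasome subunits 1.68 and 0.613.

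Summed over its 17 genes, the 19S particle was at 2546 and 2641 CPM in control cells, at 3819 to 4303 in KO1 and at 3798 to 4868 in KO2. The constitutive core was at 1552 and 1697 CPM, at 2180 to 2562 and at 2072 to 2515. In both cases each KO library was above each control and the clones overlapped. Counted by member, 30 of 38 genes in KO1 and 27 in KO2 had every KO library above both controls, where 33.2% and 22.8% of all genes did so. Psmc6 in KO1, and Psmb8 and Psmb9 in KO2, had every KO library below both, as did 33.7% and 24.1% of all genes.

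The test between KO2 and KO1 called 7 of the 38, 2 higher and 5 lower in KO2, beside 19.6% of all genes called, 10.2% higher and 9.43% lower. Psmb8 and Psmb9 differed most. Psma1 was lower in KO2 than in KO1 (-0.52 ± 0.11, adjusted p = 0.0224), as were Psmd13 (-0.43 ± 0.13, 0.0576) and Psmc3ip (-0.79 ± 0.23, 0.0555), all of which were above control in both clones. Psmd6, a lid subunit, was at 70.9 and 70.4 CPM in control cells, at 86.6, 85.0 and 95.5 in KO1, and at 138, 173, 103 and 128 in KO2. Its groups did not overlap, and it was higher in KO2 by 0.60 ± 0.17 (adjusted p = 0.0517). Psmd14 was higher in KO2 by 0.40 ± 0.12 (adjusted p = 0.0599). Psma1, Psmb8 and Psmb9 were called whichever single library was left out. The other 4 each lost the call without KO1 replicate 1, 2 or 3 (adjusted p = 0.103 to 0.228), Psmd13 and Psmd14 also without either control library or KO2 replicate 1 (0.101 to 0.115), and Psmd13 without KO2 replicate 4 (0.104). Over the 35 members other than those of the immunoproteasome, the median difference between the clones was 0.02. In the classes without a call, the extremes of that difference were 0.30 ± 0.12 for Psmb7 and -0.29 ± 0.17 for Psmb6, 0.42 ± 0.15 for Psmc3 and -0.20 ± 0.18 for Psmc2, 0.23 ± 0.13 for Psmd1 and -0.0025 ± 0.18 for Psmd4, and 0.36 ± 0.17 for Psmd5 and -0.07 ± 0.15 for Psmd9. Psma6, at 0.27 ± 0.18, was the highest alpha subunit.

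The other genes of the pathway were taken from a list of 36 regulators. 12 were called higher and 5 lower in KO1, and 11 higher and 7 lower in KO2, with 9 higher in both. Of all genes, 15.9% were called higher and 15.7% lower in KO1, 16.5% and 15% in KO2, and 9.91% higher in both. Of 5 tested chaperones that build the core, Pomp and Psmg1 were called higher in both, Psmg2 in KO1 alone, and Psmg3 and Psmg4 in neither. Pomp, which completes the beta rings, was at 75.0 and 58.6 CPM in control cells, at 169, 142 and 149 in KO1, and at 144, 184, 151 and 111 in KO2. All KO libraries were above the controls, with 1.20 ± 0.22 and 1.14 ± 0.21 (adjusted p = 0.00616 and 0.00627). Psmg1, a chaperone of the alpha ring, rose by 1.04 ± 0.24 and 0.60 ± 0.23 (0.0157 and 0.0897). Psmg2, which binds Psmg1, was called higher in KO1 (0.67 ± 0.22, adjusted p = 0.0551) and was lower in KO2 than in KO1 (-0.73 ± 0.18, 0.0324). Psmg1 lost its call in KO1 without either control library (adjusted p = 0.119 and 0.110) and in KO2 when any 1 of 7 libraries was left out (0.117 to 0.314). Psmg2 lost its call in KO1 without either control library (0.212 and 0.264) or KO1 replicate 1 or 3 (0.135 and 0.124), and the one between the clones without KO1 replicate 1 (0.114).

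Of 6 other subunits and enzymes that dock on the particle, Adrm1, Uchl5 and Usp14 were called higher in both clones, Sem1 in KO1 alone, Ube3c in neither, and Ecpas lower in both. Adrm1, a ubiquitin receptor, was higher by 0.80 ± 0.18 in KO1 and 0.97 ± 0.17 in KO2 (adjusted p = 0.0121 and 0.00512). The deubiquitinases Uchl5 (1.16 ± 0.17 and 1.00 ± 0.16, adjusted p = 0.00208 and 0.00352) and Usp14 (0.88 ± 0.17 and 0.46 ± 0.16, 0.00809 and 0.0696) were called as well. Ecpas, which holds 26S particles and takes part in their disassembly, fell by 0.82 ± 0.15 and 0.46 ± 0.14 on the log2 scale (0.00510 and 0.0399). Without control replicate 1 or 2, Usp14 (0.247 and 0.315) and Ecpas (0.202 and 0.232) were not called in KO2, nor was Adrm1 in KO1 without replicate 1 (0.101). In the ubiquitin list, the activating enzyme Uba1 and the p97 cofactor Nploc4 were among the genes higher in both clones, and Uba1 changed by 0.90 ± 0.17 and 0.82 ± 0.16 (adjusted p = 0.00657 and 0.00787). The other p97 cofactor Ufd1 was called in KO2 (0.71 ± 0.22, adjusted p = 0.0413) and between the clones (0.56 ± 0.19, 0.0799). Both Ufd1 calls, and that of Nploc4 in KO2, were lost without either control library (adjusted p = 0.124 to 0.231). Ubqln2 had 0 counts in KO1 replicate 2 and 28.2 and 27.3 CPM in control cells, and was called in no contrast.

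NRF1 (Nfe2l1) is the transcription factor that raises proteasome genes when proteasome activity is low, and Ngly1, Ddi2 and Sel1l take part in its release from the endoplasmic reticulum. Of this group of 6, 4 were called lower in KO1 and 5 in KO2, and 0 higher, beside 15.7% and 15% of all genes called lower. Syvn1 alone of the group was above 0 in both clones, at 0.10 and 0.48, and was called in neither. Ddi2, the protease that cuts NRF1, was at 163 and 143 CPM in control cells, at 51.3, 50.05 and 55.0 in KO1, and at 91.8, 108, 76.0 and 89.9 in KO2. The groups did not overlap, with KO1 the lowest, at -1.55 ± 0.17 (adjusted p = 0.000881) and -0.75 ± 0.16 (0.0103), and the clones differed by 0.81 ± 0.14 (0.0124). Ngly1, which removes its sugars, was at -1.50 ± 0.36 and -1.19 ± 0.33 (adjusted p = 0.0170 and 0.0309), Sel1l at -0.96 ± 0.23 and -0.75 ± 0.22 (0.0186 and 0.0376), and Nfe2l2, the related factor NRF2, at -1.08 ± 0.19 and -0.92 ± 0.17 (0.00468 and 0.00703). Nfe2l1 itself was at 712 and 889 CPM in control cells, at 626, 766 and 454 in KO1, and at 307, 306, 340 and 367 in KO2. KO1 overlapped the controls and KO2 was below every other library, with -0.38 ± 0.21 (adjusted p = 0.228) and -1.28 ± 0.20 (0.00314) and a difference between the clones of -0.90 ± 0.18 (0.0169). With 1 control library left out, Ngly1 (adjusted p = 0.115) and Sel1l (0.144) lost the call in KO1, and Ngly1 (0.181 and 0.156), Sel1l (0.150 and 0.247) and Ddi2 (0.134) in KO2.

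Of the 5 activators and inhibitors of the core, Psme2 alone was called against control, in KO2. Psme1 and Psme2 form the PA28 ring that interferon induces. Psme2 was at 84.9 and 89.6 CPM in control cells, at 86.5, 91.1 and 89.2 in KO1, and at 36.4, 38.2, 43.2 and 73.1 in KO2. It was lower in KO2 than in either other group, with -0.87 ± 0.26 against control (adjusted p = 0.0369) and -0.90 ± 0.23 against KO1 (0.0373). Psme1 was called between the clones (-1.02 ± 0.31, adjusted p = 0.0635), a call that was lost when any 1 control or KO1 library or KO2 replicate 1 was left out (0.105 to 0.194). That of Psme2 between the clones was lost without KO1 replicate 2 (0.129). The other activators and the inhibitor, Psme3, Psme4 and Psmf1, were called in no contrast.

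Among 16 interferon and MHC class I genes, 1 was called higher in KO1 and 0 lower, 6 were called lower in KO2 and 0 higher, and 9 were lower in KO2 than in KO1. The shares of all genes were 15.9% higher and 15.7% lower in KO1, 16.5% and 15% in KO2, and 9.43% lower in KO2 than in KO1. Irf1, a transcription factor of the interferon response, was at 91.8 and 88.9 CPM in control cells, at 142, 153 and 102 in KO1, and at 16.7, 17.6, 29.1 and 51.1 in KO2. The 3 groups did not overlap, and KO2 lay lowest. Its log2 fold change in KO2 was -1.65 ± 0.39 against control (adjusted p = 0.0167) and -2.21 ± 0.36 against KO1 (0.00889). Tap1 and Tap2, the peptide transporter whose genes flank Psmb8, were lower in KO2, at -1.81 ± 0.42 and -1.78 ± 0.41 against control (adjusted p = 0.0150 and 0.0146). Isg15, a ubiquitin-like protein, was at 19.8 and 21.4 CPM in control cells, at 28.9, 12.2 and 12.04 in KO1, and at 1.59, 1.64, 2.94 and 7.85 in KO2, again with KO2 lowest (-2.54 ± 0.61, adjusted p = 0.0178).

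Irf7, Tapbp, Ifit1 and Ifit3 were lower in KO2 than in KO1 too, from -0.86 ± 0.22 (Tapbp, adjusted p = 0.0358) to -3.95 ± 0.83 (Ifit3, 0.0201). Ifit3 was the gene called higher in KO1, from 0.0659 and 0.183 CPM in control cells to between 1.92 and 10.0, and it lost the call without control replicate 1 (adjusted p = 0.134). Without KO1 replicate 1, Irf7, Tapbp and Ifit1 were not called between the clones (0.114 to 0.133). The class I heavy chains H2-K1 and H2-D1 and their light chain B2m were called in no contrast, with 0.03 ± 0.24, 0.23 ± 0.20 and -0.07 ± 0.31 between the clones. Without control replicate 2, Tap1 and Tap2 were not called in KO2 (adjusted p = 0.146 and 0.140). Psme2 (0.178 and 0.207) and Irf1 (0.114 and 0.101) lost the call without control replicate 1 or 2, and so did Isg15 (0.10006 and 0.107).

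**Figure D5:**
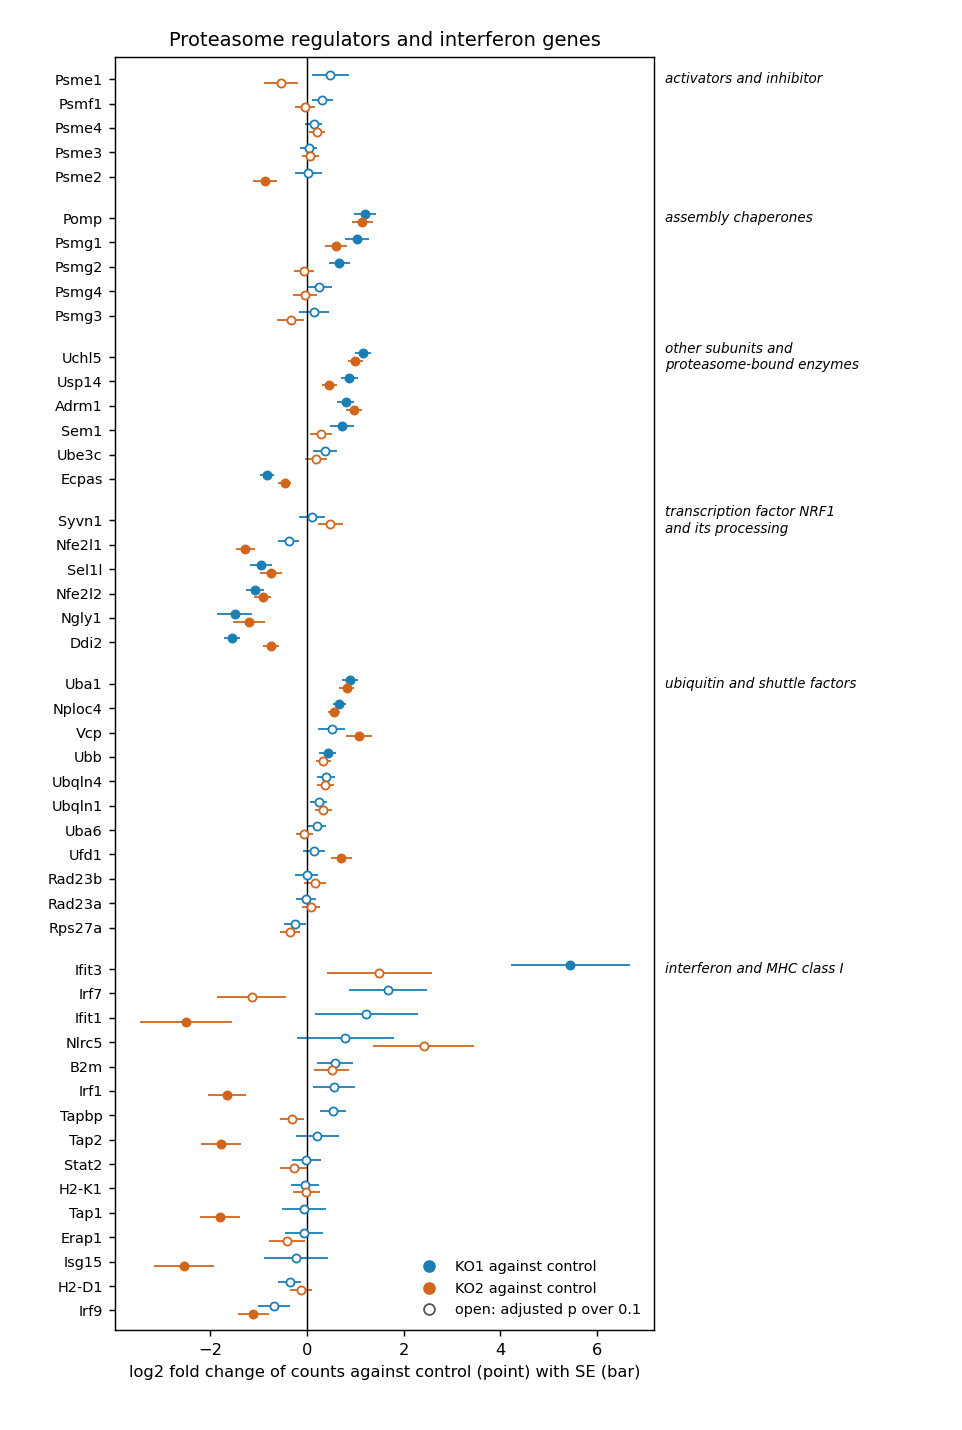
Log2 fold change against control of proteasome regulators and of interferon and MHC class I genes in KO1 (blue) and KO2 (orange). Points are the fitted values, bars the SE, filled points passed an adjusted p of 0.1, and 4 listed genes are not drawn, Ubqln2, with 0 counts in 1 library, among them. Ddi2, Ngly1, Nfe2l2 and Sel1l lie left of 0 in both clones, and in KO2 Irf1, Tap1, Tap2 and Isg15 lie between -1.65 and -2.54.

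ChIRP-seq, in which oligos complementary to MaTAR25 pull down the RNA with its DNA, gave a second readout that the choice of genes did not use. The 4 peak lists come from 4T1 cells (the even-numbered, the odd-numbered or all oligos) and from NDL cells (all oligos), each pooled over replicates. The NDL cells come from mammary tumors of FVB mice. Their genotype is MMTV-PyMT in the labels and MMTV-Neu-NDL in the study's text. For ChIRP-seq the study's supplement names cNeu cells, which its methods give as the cultured line NF639. A proteasome gene was the one with the nearest promoter to at least 1 peak for 15 of 40 members in the even list, 13 in the odd list, 15 in the 4T1 list with all oligos and 19 in the NDL list. Of the 38 tested members alone, 39.5, 31.6, 36.8 and 44.7% were nearest to a peak, and of all genes tested in the RNA-seq data 52.9, 52.4, 59.6 and 58.0% were. The median span of the 38 tested members was 12.1 kb against 18.7 kb for all genes tested, and its part in that difference was not tested. The even list held 0 peaks on chromosome 3, where Psma5, Psmb4 and Psmd4 lie.

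Psma6, Psma7, Psmb1 and Psmd8 were nearest to a peak in all 4 lists, and 12 members in none, Psmb8, Psmb9, Psmb10 and Psmd13 among them. The highest score of a peak nearest to a member was 377.9, for an intergenic peak at -2352 bases from the start of Psmd3 in the NDL list (chr11:98679828-98680577), of rank 1352 among the 70329 peaks there. Peaks that overlap it were in the even list (score 377.8, rank 586) and in the 4T1 list with all oligos (335.5, rank 2404). The odd list held no peak nearest to Psmd3. Peaks over the promoter of Psmd11 were in the even list (chr11:80428286-80428785, score 44.9) and in the 4T1 list with all oligos (chr11:80428269-80428893, score 120.1).

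RefSeq promoters were found for 33 of the 40 members. They were searched on both strands for 5 motifs, and the share of all 32851 promoters with the motif is given beside each. That total includes promoters of genes that were not tested in the RNA-seq data. The ETS motif CCGGAAG was in promoters of 11 members, or 34.3% of their 35 promoters against 8.86% of all. The NF-Y box CCAAT was found for 14 members (40.0% against 37.4%), the core of the antioxidant response element TGACNNNGC, which NRF1 and NRF2 bind, for 5 (14.3% against 12.4%), the interferon-stimulated response element for 3 (8.57% against 3.44%) and the gamma-activated site for 2 (5.71% against 8.30%). A match shows only that the letters are there.

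The antioxidant response core was in the promoters of Psmb5, Psmb6, Psmc6, Psmd12 and Psmd9, and the ETS motif in those of Psmd13 and Psmd11. 4 promoters are printed, 2 constitutive protease subunits with the former and these 2 lid subunits with the latter, with the motif in capitals. The motif begins 47 bases before the start in Psmb5 (chr14:54617946-54618245, minus strand), 9 in Psmb6 (chr11:70525107-70525406, plus strand), 6 in Psmd13 (chr7:140882144-140882443, plus strand) and 11 in Psmd11 (chr11:80428365-80428664, plus strand), where it is on the opposite strand.
Psmb5: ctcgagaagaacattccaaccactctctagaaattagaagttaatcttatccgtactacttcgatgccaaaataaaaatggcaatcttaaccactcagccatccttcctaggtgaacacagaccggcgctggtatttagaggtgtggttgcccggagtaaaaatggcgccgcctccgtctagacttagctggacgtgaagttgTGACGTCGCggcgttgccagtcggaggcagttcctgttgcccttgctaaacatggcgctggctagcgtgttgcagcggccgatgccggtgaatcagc
Psmb6: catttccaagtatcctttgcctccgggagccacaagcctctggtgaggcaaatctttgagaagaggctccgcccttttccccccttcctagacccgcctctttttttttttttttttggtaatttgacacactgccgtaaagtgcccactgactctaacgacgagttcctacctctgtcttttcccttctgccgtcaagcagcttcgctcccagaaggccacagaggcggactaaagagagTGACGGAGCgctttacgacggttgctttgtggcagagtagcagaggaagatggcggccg
Psmd13: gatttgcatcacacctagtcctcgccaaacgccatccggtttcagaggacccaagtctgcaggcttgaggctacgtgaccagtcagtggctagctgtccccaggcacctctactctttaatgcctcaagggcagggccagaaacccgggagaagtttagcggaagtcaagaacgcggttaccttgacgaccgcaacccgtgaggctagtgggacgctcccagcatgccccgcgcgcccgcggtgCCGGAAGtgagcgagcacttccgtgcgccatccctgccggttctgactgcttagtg
Psmd11: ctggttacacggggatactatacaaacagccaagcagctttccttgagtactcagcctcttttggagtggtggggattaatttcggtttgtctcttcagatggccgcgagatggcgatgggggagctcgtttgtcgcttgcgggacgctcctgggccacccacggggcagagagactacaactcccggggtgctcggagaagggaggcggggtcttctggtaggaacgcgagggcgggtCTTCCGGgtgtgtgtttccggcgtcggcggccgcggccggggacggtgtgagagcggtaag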

How the data were processed

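RNA-seq of 2 control, 3 KO1 and 4 KO2 libraries of 4T1 cells was analysed, with 4 ChIRP-seq peak lists. The members and gene lists were chosen with earlier results of these data known. The authors mapped reads to GRCm38 with STAR and deposited counts per gene from HTSeq with GENCODE vM5, unscaled. Entries for reads given to no gene (33.9 to 37.0%) were left out of library sizes. KO2 replicate 2 lists each gene 3 times and was read once. The poly(A) kit does not mark strand. For ChIRP-seq the authors mapped reads with Bowtie2, called peaks with HOMER over pooled replicates against a Ppib pulldown and deposited a peak score per peak, the distance to the nearest start and its transcript (signed bases, other unit). Transcripts were matched to genes through GENCODE vM21.

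Symbols, positions and exon lengths were taken from GENCODE vM21, which named 44671 of the 45318 genes. edgeR 4.0.16 (R 4.3.3) fitted all 9 libraries as 3 groups with TMM scaling, filterByExpr and the quasi-likelihood test, and p-values were adjusted by Benjamini-Hochberg over 15023 genes, with the study's threshold of 0.1. The biological coefficient of variation was 32.5%. KO2 against KO1 tests the difference between the clones. Shares were tested by exact permutation over libraries. The script was tested on simulated data, with fewer genes changed than were called in the real data. Log2 changes of 0.5 were called for 2.78% of changed genes in KO1 and 0% in KO2. Changes of 1 were called for 18.2% and 14.5%, and changes of 2 for 55.2% and 55.9%. Of 52 calls in KO1 6 were false, and of 53 in KO2 9 were. A gene not called can thus have changed by such an amount. Alternatives were DESeq2 1.42.0 without independent filtering, other scalings and filters, a threshold of 0.05, a replicate block, only the 2 groups compared, the 7 KO libraries as 1 group, and each library left out. Genes were named by a rule: the catalytic pairs, the ends of each class per comparison, members called between the clones, untested members, the ends of each class in level, and listed genes called alike in both clones or between them. Single members beyond these were named after their values were seen. Paaf1 was not matched in the counts, and 3 listed genes are counted but not reported singly here.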

Additional observations from a re-analysis of the deposited data

Results flagged for a closer look

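In 42 sets of 4 KO2 values, the CPM of the members with any count and the 3 shares, 1 library stood apart: Psmd8 was at 230.5 CPM in KO2 replicate 2, against 131 to 147 in the other 3. Its gap to the next value was 0.837 of the range, over Dixon's 95% limit for 4 values. Chance alone flags about 1 in 20 groups.

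7 of the 38 tested members differed between the clones in the test of that difference, the KO2 against KO1 contrast. That is 18.4%, beside 19.6% of all genes tested. The log2 differences, KO2 minus KO1, were -0.52 for Psma1, -3.20 for Psmb8, -2.63 for Psmb9, 0.60 for Psmd6, -0.43 for Psmd13, 0.40 for Psmd14 and -0.79 for Psmc3ip. Of these, Psmb8 was called on opposite sides of control in the clones, Psmb9 was called in KO2 alone, and Psma1, Psmd13 and Psmc3ip were above control in both. KO1 and KO2 are 1 clone each.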

How the results depend on the processing

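The comparisons rest on 2 control libraries. Leaving out each library in turn gave 10 to 25 members called in KO1 (20 with all), 9 to 25 in KO2 (23), 3 to 11 between the clones (7) and 7 to 18 higher in both clones (16). Without 1 control the lone sample is assumed to vary like the other groups, and calls over all genes fell as well. Of these, 10 came without either control library and 12 without KO1 replicate 3 (KO1), 9 and 13 without control replicate 1 or 2 (KO2), 3 without KO1 replicate 1, 2 or 3 and 11 without KO2 replicate 3 (between the clones), and 7 and 9 without control replicate 1 or 2 (both clones). At a threshold of 0.05, 3 were called between the clones. The other settings stayed within 1.5 times these counts. With the replicate block, 15, 20 and 5 members were called and 14 were higher in both clones. The numbers do not mark a shared culture or day, and same-numbered libraries did not deviate together (correlations of -0.149 to 0.0429), so the block was not used.

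The fall of Psmb8 and Psmb9 in KO2 was called under DESeq2 and each scaling, filter and block, and not with the 7 KO libraries as 1 group, where Psmb8 was at -0.0174, Psmb9 at -0.75 and Psmb10 at 0.31. That grouping also gave Psmd14 0.16, Psmd5 0.0905 and Ifit1 0.15, in each case with the opposite sign to the clone's own value. Other sign changes were of genes not called. In KO1, Psma6 was -0.0242 under the block and Psmb7 -0.0371 without scaling, which moved the median of all genes by -0.09 in KO1 and -0.10 in KO2. Between the clones, Psmd4 was 0.00174 with DESeq2, 0.00177 with RLE, 0.0177 with the stricter filter, 0.00506 with the block and 0.00553 with 2 groups. With each library left out, values ranged from -0.22 to 0.78 for Psmb9 in KO1, -0.35 to 0.12 for Psmb10 in KO2, -0.0947 to 0.12 for Psmd4 and -0.16 to 0.0404 for Psmd9 between the clones.

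Shares not divided by length gave differences of -34.4 (Psmb8, KO2 against control), -43.5 (Psmb8, between the clones), -7.12 and -5.05 (Psmb9, likewise) and 7.48 points (Psmb10, KO1), and with the longest transcript -22.5 and -30.6 (Psmb8). The ranges with 1 library left out were 4.41 to 8.69, -15.3 to -14.5 and -23.5 to -19.2 for Psmb8 (KO1, KO2, between the clones), -2.37 to 0.0697, -5.05 to -2.62 and -3.05 to -2.16 for Psmb9, and 8.57 to 11.6, -9.98 to -2.91 and -20.0 to -13.0 for Psmb10. With peaks of a score of at least 100, 2, 3, 4 and 4 members were nearest to one (even, odd, all 4T1, NDL). In the window of 150 bases before the start, 3 members held the antioxidant response core and 1 the interferon-stimulated response element.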

Other observations

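Among the KO2 libraries, replicate 4 was the highest for 8 of the 16 interferon and MHC class I genes (Stat2, Irf1, Irf7, Irf9, Tapbp, Erap1, Ifit1 and Isg15), and replicates 1, 2 and 3 for 4, 2 and 2. The same library was the highest of KO2 for Psmb10 (57.4 CPM), Psme1 (88.9 CPM) and Psme2 (73.1 CPM), but for Psmb8 and Psmb9 replicate 3 was, with 6.60 and 2.74 CPM. How often each KO2 library was the highest over all genes was not counted.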
